A study of Homo sapiens with 9 samples.

Results

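In MIA PaCa-2 cells, 50 protein-coding genes had at most 3 raw counts in each of the 3 DMSO libraries and at least 20 raw counts in each of the 3 libraries from cells treated with SCH772984. These genes, called the switched-on genes here, were chosen by that rule from 19951 protein-coding genes in the table, of which 7421 were silent in DMSO in the sense of the first condition. Because the rule used the DMSO and SCH772984 counts themselves, the difference between these conditions is a description of how the genes were chosen and was not tested. The counts with compound 1 took no part in the choice.

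The MIA PaCa-2 line is long established in culture and came from a human pancreatic carcinoma, and RNA was sequenced from 9 samples of these wild-type cells. In 3 samples the cells received 1 μM SCH772984, an inhibitor of the kinases ERK1 and ERK2. In 3 they received 1 μM compound 1, an inhibitor of TBK1 and IKKε, and in 3 they received 0.1% DMSO, the solvent, as the control. Every sample was treated for 24 h, and the use of a single line and a single time limits each comparison to those conditions. The labels number the libraries 1 to 3 within each condition without saying how separate the cultures were, so the spread between libraries may be partly technical. Library totals ranged from 9464432 to 13887859 counts, with all 3 SCH772984 libraries above the other 6. In the same cells SCH772984 lowered 15 of 15 tested genes of a list of ERK output genes, with a median log2 fold change of -3.51. Among markers of other cell types, 5 acinar genes held 0 counts in all libraries, 5 endocrine genes at most 2 summed counts, 4 leukocyte genes 10 to 28 and 3 endothelial genes 0 to 63, whereas 9 epithelial markers summed to between 14371 and 37700 and 4 mesenchymal markers to between 22314 and 29133. Most of the epithelial sum came from the keratin gene KRT8 and most of the mesenchymal sum from VIM, the gene of vimentin, while EPCAM and CFTR had 0 counts in every library and CDH1, the gene of E-cadherin, had 0 in each DMSO library.

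ERK is the last kinase of the RAF and MEK cascade. Active ERK phosphorylates transcription factors and their co-regulators, and its best known transcriptional effect is the induction of immediate early genes and of its own feedback inhibitors. A gene with almost no reads in a cell line is usually one whose promoter is inactive in that lineage, such as a muscle gene or a kidney transporter in an epithelial cell.

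The switched-on genes included IGFN1, a sarcomere protein of skeletal muscle, ANGPTL7, a secreted protein of the eye's outflow tissue, MUC5AC, a gel-forming mucin of stomach and airway, and SLC12A3, the thiazide-sensitive cotransporter of the distal kidney tubule. These 4 were the only switched-on genes found on 18 lineage marker lists, and each stood on a different list. The lists held 6.90% of all DMSO-silent genes, close to the share of the 50, and the other 46 switched-on genes were on none of them. Grouped by what their products do, 11 encoded secreted or matrix proteins, 13 cell surface receptors or adhesion proteins, 3 channels or transporters, 4 transcription factors, 6 intracellular enzymes and 13 cytoskeletal, adaptor or other intracellular proteins.

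The promoters of the switched-on genes resembled those of silent genes rather than those of the remaining genes in their CpG content. A 300-base promoter sequence from RefSeq, on the GRCh38.p14 build and running from 250 bases before to 50 bases after the RefSeq start site, was matched by symbol for 35 of the 50 genes. The ratio of observed to expected CpG, a measure of how far a promoter resembles a CpG island, had a median of 0.313 in these 35 promoters. It was 0.354 in 4975 promoters of the other DMSO-silent genes and 0.844 in 9886 promoters of the remaining protein-coding genes. A ratio of at least 0.6 was found in 11 of the 35 (31.4%), in 33.3% of the other silent genes and in 83.4% of the remaining genes. The median GC content of the switched-on genes' promoters was 62.3%, against 55.3% and 65.7%.

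**Figure D1:**
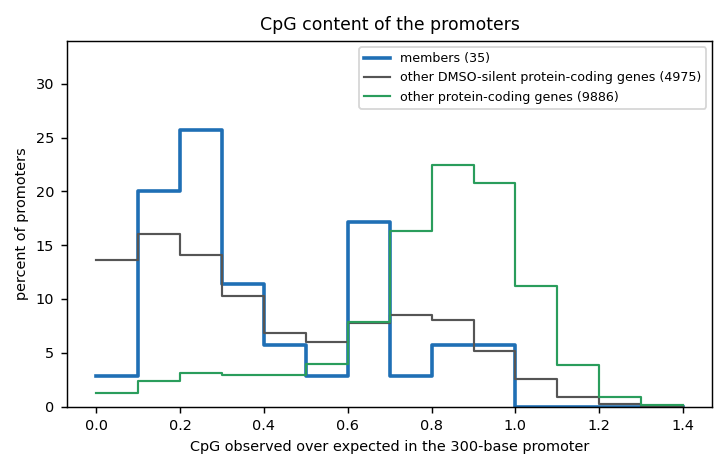
CpG content of 300-base promoters. The horizontal axis is the observed over expected CpG ratio in bins of 0.1 and the vertical axis the percent of promoters in each bin, for the 35 matched switched-on genes (members), 4975 other DMSO-silent genes and 9886 remaining protein-coding genes, and the first distribution lies mostly with the second, at a median of 0.313 against 0.354, while the third has a median of 0.844.

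Upstream sequences are shown for 6 genes that illustrate this range: IGFN1, ANGPTL7 and PCDH18, which reached the highest counts without any of the searched motifs upstream, PRSS35, with a CpG ratio of 0.635 over its window, SLC12A3, with a TATA box, and ASCL5, with an AP-1 motif. Each is the stretch of 250 bases that precedes the RefSeq start site, written 5′ to 3′ along the gene's strand, with every match to a searched motif in capitals.
IGFN1, chr1:201190574-201190823, plus strand: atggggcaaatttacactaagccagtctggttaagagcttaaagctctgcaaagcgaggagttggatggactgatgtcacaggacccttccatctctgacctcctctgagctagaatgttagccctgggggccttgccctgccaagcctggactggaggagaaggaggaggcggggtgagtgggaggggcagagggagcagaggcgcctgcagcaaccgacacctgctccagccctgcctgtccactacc
ANGPTL7, chr1:11189105-11189354, plus strand: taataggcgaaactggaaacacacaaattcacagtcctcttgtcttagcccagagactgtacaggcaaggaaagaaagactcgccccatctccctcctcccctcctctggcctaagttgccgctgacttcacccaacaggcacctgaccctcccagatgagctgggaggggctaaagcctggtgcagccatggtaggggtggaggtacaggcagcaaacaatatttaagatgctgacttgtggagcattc
PCDH18, chr4:137532495-137532744, minus strand: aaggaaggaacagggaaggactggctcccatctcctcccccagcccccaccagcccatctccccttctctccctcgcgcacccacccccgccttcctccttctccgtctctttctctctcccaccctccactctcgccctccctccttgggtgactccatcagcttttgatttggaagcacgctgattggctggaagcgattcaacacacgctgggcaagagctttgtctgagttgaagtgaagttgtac
PRSS35, chr6:83512284-83512533, plus strand: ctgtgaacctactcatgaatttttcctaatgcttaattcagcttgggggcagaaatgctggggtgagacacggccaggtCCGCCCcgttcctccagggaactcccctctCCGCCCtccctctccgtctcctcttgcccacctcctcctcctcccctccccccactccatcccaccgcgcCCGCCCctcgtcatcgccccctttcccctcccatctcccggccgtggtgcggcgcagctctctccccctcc
SLC12A3, chr16:56864957-56865206, plus strand: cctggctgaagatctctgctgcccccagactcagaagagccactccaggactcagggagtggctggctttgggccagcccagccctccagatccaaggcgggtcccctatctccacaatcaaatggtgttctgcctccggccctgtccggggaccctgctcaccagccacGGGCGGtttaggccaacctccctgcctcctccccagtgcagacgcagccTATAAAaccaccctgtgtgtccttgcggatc
ASCL5, chr1:201127185-201127434, minus strand: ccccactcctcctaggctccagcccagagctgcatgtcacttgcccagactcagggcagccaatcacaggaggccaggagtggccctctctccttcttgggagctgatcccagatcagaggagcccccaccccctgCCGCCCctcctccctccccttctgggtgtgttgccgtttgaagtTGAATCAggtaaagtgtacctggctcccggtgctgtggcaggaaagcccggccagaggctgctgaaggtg
In PRSS35 the 3 capital runs are GC boxes read on the opposite strand. In SLC12A3 they are a GC box and, starting 31 bases before the start site, a TATA box. In ASCL5 the first is a GC box on the opposite strand and the second an AP-1 motif that starts 70 bases before the start site.

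No searched motif marked the switched-on promoters as a class. On both strands of the 300-base windows, the GC box GGGCGG was found in 15 of 35 (42.9%), compared with 44.6% of all 27305 promoters and 71.4% of those of the remaining protein-coding genes. The E-box CAGCTG was found in 9 (25.7%, against 17.7% of all promoters), the TEAD motif GGAATG in 6 (17.1% against 14.05%) and the AP-1 motif TGANTCA in 3 (8.57% against 7.76%). The 3 promoters with an AP-1 motif were those of ASCL5, OMG and SLITRK6. The TATA box TATAAA was found in 2, those of SLC12A3 and TNFSF10 (5.71% against 11.95%), and in 17.8% of the other silent genes. The ETS motif CCGGAAG, a site for the ETS factors that ERK phosphorylates, was found in 1 promoter, that of RIBC1 (2.86%), against 4.24% of the other silent genes and 19.6% of the remaining protein-coding genes. The forkhead motif GTAAACA was found in 1, that of SLITRK3 (2.86% against 3.41% of all promoters), and the MITF and TFE E-box CACGTGA in 0 of 35, against 3.82% of all promoters. With 35 promoters a single match changes these shares by several percentage points, and a match is a run of letters and not a measured binding site.

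The switched-on genes were the upper end of a range of SCH772984 counts among genes silent in DMSO. These genes were chosen for low DMSO counts, and the SCH772984 libraries were the deepest. The numbers below are therefore descriptions and were not tested. Of the 7421 DMSO-silent genes, 1143 had at least 1 count in each SCH772984 library, 325 had at least 5, 149 at least 10, 50 at least 20, 15 at least 50 and 4 at least 100. The same minimum counts in each compound 1 library were reached by 465 genes at 1, 17 at 5, 1 at 10 and 0 at 20. No count was seen in any of the 9 libraries for 3923 of the silent genes. The rule turned round, with at most 3 counts in each SCH772984 library and at least 20 in each DMSO library, was met by 1 protein-coding gene, DUSP6, the ERK phosphatase and feedback inhibitor, with 40, 25 and 51 counts with DMSO and 0, 1 and 0 with SCH772984.

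**Figure D2:**
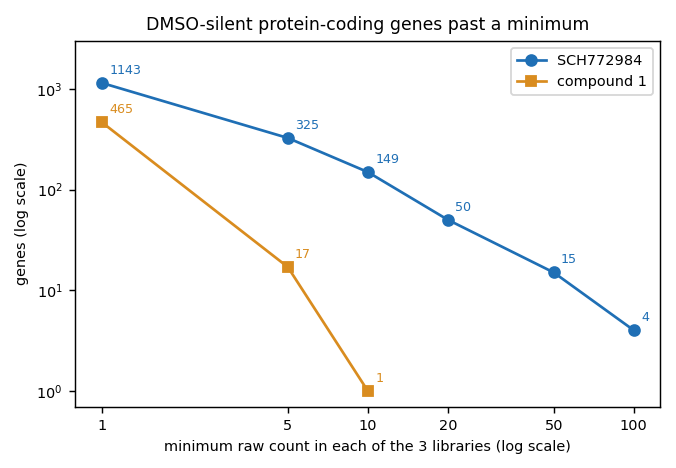
Number of DMSO-silent protein-coding genes that reached a minimum raw count in each of the 3 libraries of a condition, on log axes. SCH772984 (circles) ran from 1143 genes at 1 count to 4 genes at 100 counts, and compound 1 (squares) from 465 genes at 1 count to 1 gene at 10 counts; points at 0 genes are not drawn.

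Summed over the 50 genes, the libraries held 40, 43 and 44 counts with DMSO, 96, 116 and 93 with compound 1 and 3016, 3470 and 4435 with SCH772984. As CPM, the count divided by each library's TMM-adjusted total in units of 1000000 counts, these were 4.56 ± 0.395, 10.7 ± 1.26 and 280.5 ± 25.8 (SD, n = 3). These are averages over all cells of a culture, so a low level in every cell, a higher level in few cells and a change in the number of such cells cannot be told apart. IGFN1 alone supplied 28.6% of the SCH772984 counts, and without it the SCH772984 sum was 200.6 ± 16.7 CPM (SD, n = 3), 44.0 times the DMSO sum. The other 7371 silent genes together went from 143.4 ± 7.81 CPM with DMSO to 299.4 ± 23.7 with compound 1 and 615.6 ± 55.7 with SCH772984 (SD, n = 3), which is 2.09 and 4.29 times. For the 50 genes the ratio of compound 1 to DMSO, 2.35, was therefore close to that of the silent genes as a whole.

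The capped DMSO counts bear on that ratio, because genes chosen for low DMSO counts can move up but hardly down. The same cap was applied the other way, as a comparison chosen after the data were seen: the 7141 protein-coding genes with at most 3 counts in each compound 1 library had a summed DMSO level of 0.907 times their compound 1 level, whereas the 7421 genes capped in DMSO had a compound 1 level of 2.10 times their DMSO level. In the DMSO libraries 850 to 905 of the silent genes had a count, in the compound 1 libraries 1236 to 1394 and in the SCH772984 libraries 1716 to 2168. What raised the low counts in the compound 1 libraries was not tested.

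**Figure D3:**
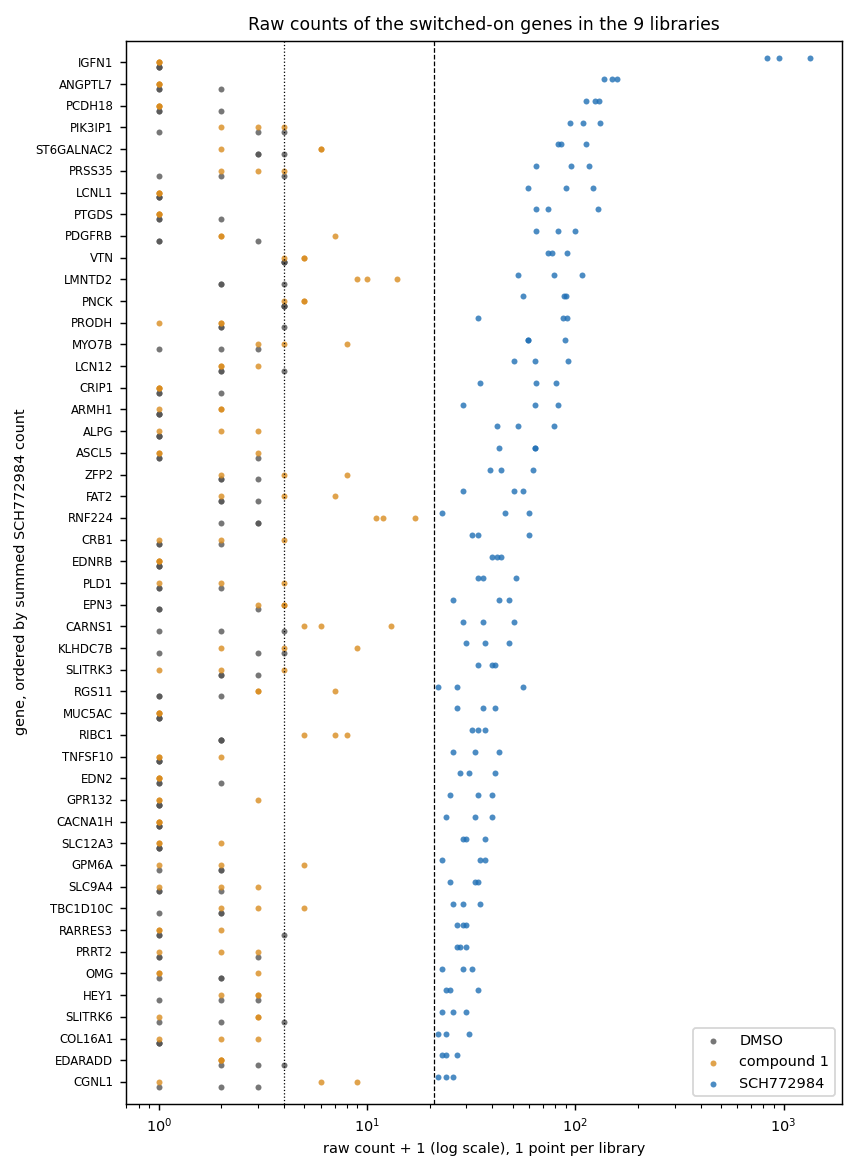
Raw count plus 1 of 48 of the 50 genes in each of the 9 libraries (1 point per library, log axis), ordered by summed SCH772984 count. The dotted line marks the DMSO ceiling of 3 counts and the dashed line the SCH772984 minimum of 20 counts; the highest compound 1 count, 16, lies between them.

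IGFN1 and ANGPTL7 led the list. IGFN1 (ENSG00000163395, chr1:201190825-201228952, plus strand) had 0 counts in all DMSO and all compound 1 libraries and 834, 955 and 1336 with SCH772984. Per kilobase of exon its SCH772984 level was 6.59 ± 0.841 CPM (SD, n = 3), at percentile 73.1 of all protein-coding genes in those libraries, so the most strongly expressed of the 50 was a moderately expressed gene. Against the 3 counts over the DMSO group that a count of 0 allows, its level was at least 751-fold higher. An antisense gene that shares 89 exon bases with it, AC103925.1, had 0 counts in each DMSO library and 12, 13 and 20 with SCH772984.

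ANGPTL7 (chr1:11189341-11195981, plus strand) lies in an intron of MTOR, on the opposite strand. It had 1, 0 and 0 counts with DMSO, 0 in each compound 1 library and 157, 136 and 149 with SCH772984, or 5.14 ± 0.682 CPM per kilobase (SD, n = 3). The ratio of its summed levels was 319, with a 95% counting interval of 56.9 to 12611. The intervals given with these ratios cover counting error only, and the width of this one comes from the single DMSO count. MTOR itself, the host gene, moved the other way, with 2549, 2446 and 2380 counts with DMSO and 2351, 2162 and 2738 with SCH772984 (log2 fold change -0.50 ± 0.06 SE, edgeR adjusted p = 1.0e-09).

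Among the other secreted proteins, 3 lipocalin genes stood together on chromosome 9. Lipocalins are small carriers of hydrophobic molecules. PTGDS, which makes prostaglandin D2, had 0, 0 and 1 counts with DMSO, 0 in each compound 1 library and 64, 73 and 127 with SCH772984. LCNL1, which begins 161 bases beyond the end of PTGDS on the same strand, had 0 in all DMSO and compound 1 libraries and 58, 89 and 121 with SCH772984. Both were thus at or next to 0 outside the SCH772984 libraries. A gene model on the same strand, AL807752.7, shares 634 exon bases with PTGDS and 355 with LCNL1. Whether PTGDS and LCNL1 were read from a joint transcript was not tested. LCN12, 19.6 kb before PTGDS, had 1, 1 and 3 counts with DMSO, 2, 1 and 1 with compound 1 and 50, 63 and 91 with SCH772984. In all 3 the third SCH772984 library had the highest raw count, and it was also the deepest library. C8G, a complement component of the lipocalin family that lies 2.58 kb before LCN12, is not on the list because it was measurable in DMSO, with 11, 8 and 8 counts, and it rose by a log2 fold change of 3.39 ± 0.26 SE (edgeR adjusted p = 7.3e-16). In all, 2 of 3 tested lipocalin relatives rose and 13 of 17 had at most 3 counts in every DMSO and SCH772984 library.

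VTN, the adhesive plasma and matrix protein vitronectin, had 3 counts in each DMSO library, at the ceiling of the rule. It had 4, 4 and 3 with compound 1 and 73, 90 and 76 with SCH772984. PRSS35, a secreted member of the serine protease family, had 0, 3 and 1 counts with DMSO, 1, 3 and 2 with compound 1 and 64, 94 and 116 with SCH772984. EDN2, the vasoconstrictor peptide endothelin 2, had 1, 0 and 0 counts with DMSO, 0 with compound 1 and 27, 30 and 40 with SCH772984. EDNRB, a receptor for the endothelins, had 0 in all DMSO and compound 1 libraries and 41, 39 and 43 with SCH772984. A ligand and a receptor of the same system were thus both on the list.

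The remaining secreted products were present at lower levels. TNFSF10, the death ligand TRAIL, had 0 counts with DMSO, 0, 0 and 1 with compound 1 and 32, 25 and 42 with SCH772984, while its receptors TNFRSF10A, TNFRSF10B and TNFRSF10D all fell. TNFRSF10A fell most of the 3, from 590, 549 and 574 counts to 119, 119 and 161 (log2 fold change -2.58 ± 0.10 SE, edgeR adjusted p = 2.7e-26). MUC5AC had 0 counts in all DMSO and compound 1 libraries and 35, 26 and 40 with SCH772984. Because its exons add up to 17448 bases, this was the lowest per-length level of the 50, 0.149 ± 0.0210 CPM per kilobase (SD, n = 3), and reads can be shared with MUC5B. COL16A1, a collagen of the fibril-associated type, had 0 counts with DMSO, 2, 1 and 0 with compound 1 and 23, 21 and 30 with SCH772984.

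Genes for cell surface proteins formed the joint largest group, with 13 members. PCDH18, a delta protocadherin that mediates contact between cells, had 1, 0 and 0 counts with DMSO, 0 with compound 1 and 129, 123 and 112 with SCH772984, a ratio of 262 with a counting interval of 46.8 to 10391. Of its tested relatives, PCDH9 rose by 4.55 ± 0.19 and PCDH7 by 3.22 ± 0.34, whereas PCDH1 fell by 2.85 ± 0.09 (log2 fold change ± SE, edgeR adjusted p = 9.5e-25, 1.6e-11 and 4.3e-30). FAT2, a giant cadherin, had 2, 1 and 1 counts with DMSO, 1, 3 and 6 with compound 1 and 50, 28 and 55 with SCH772984, and its relative FAT4, already expressed at 24, 26 and 30 counts, rose by 4.81 ± 0.13 (edgeR adjusted p = 5.5e-32). CRB1, which organizes the apical membrane of photoreceptors, had 0, 0 and 1 counts with DMSO, 1, 0 and 3 with compound 1 and 33, 31 and 59 with SCH772984. The protocadherins thus differed in direction as well as in starting level, whereas in the FAT family FAT4 rose, FAT1 was not called, at 0.03 ± 0.06, and FAT3 had 0 counts with DMSO and SCH772984.

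Several surface genes are best known from neurons and glia. SLITRK3, which organizes synapses, had 1, 1 and 2 counts with DMSO, 0, 3 and 1 with compound 1 and 33, 39 and 40 with SCH772984. SLITRK6, of the same family, had 3, 0 and 1 counts with DMSO, 0, 2 and 2 with compound 1 and 29, 25 and 22 with SCH772984. Their other 4 family members had at most 3 counts in every DMSO and SCH772984 library. OMG, a myelin glycoprotein whose gene lies in an intron of NF1 on the opposite strand, reached 22, 31 and 28 counts with SCH772984 from 0, 1 and 1. GPM6A, a neuronal proteolipid, reached 34, 22 and 36 from 1, 0 and 1, and PRRT2, a synaptic protein, reached 26, 27 and 29 from 0, 0 and 2. No gene of the neuron list or of the glia and neural crest list was on the switched-on list, although 37 of 50 and 18 of 30 of them were silent in DMSO.

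Signalling receptors and other surface proteins made up the rest. PDGFRB, the receptor kinase for PDGF-BB and a marker of pericytes and fibroblasts, had 0, 0 and 2 counts with DMSO, 1, 6 and 1 with compound 1 and 82, 64 and 99 with SCH772984. Of its ligands and relatives 3 of 4 tested rose, PDGFA by 1.11 ± 0.10, PDGFD by 0.89 ± 0.25 and PDGFC by 0.42 ± 0.07 (log2 fold change ± SE, edgeR adjusted p = 7.6e-14, 0.0018 and 7.2e-07). GPR132, a receptor that responds to protons and oxidized lipids, had 0 counts with DMSO, 0, 2 and 0 with compound 1 and 24, 33 and 39 with SCH772984. PIK3IP1, a transmembrane inhibitor of PI3-kinase, had 2, 0 and 3 counts with DMSO, 1, 3 and 2 with compound 1 and 108, 93 and 130 with SCH772984, a ratio of 47.7 with a counting interval of 20.2 to 147.9. ALPG, the germ cell alkaline phosphatase, had 0 counts with DMSO, 1, 2 and 0 with compound 1 and 41, 52 and 78 with SCH772984. Its nearly identical neighbour ALPP, the placental form, had 0 counts in each DMSO library and 21, 12 and 14 with SCH772984 (edgeR adjusted p = 9.1e-07), and reads may be shared between these copies.

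The 3 transport genes were all near the lower limit of the rule. CACNA1H, the pore subunit of a T-type calcium channel, had 0 counts in all DMSO and compound 1 libraries and 23, 39 and 32 with SCH772984. SLC12A3 had 0 counts with DMSO, 0, 0 and 1 with compound 1 and 29, 28 and 36 with SCH772984. SLC9A4, a sodium-proton exchanger of the gastric parietal cell, had 1, 0 and 0 counts with DMSO, 1, 2 and 0 with compound 1 and 24, 32 and 33 with SCH772984. Its family moved with it, since 5 of 7 tested sodium-proton exchangers rose and 0 fell. The largest of these changes were in SLC9A3, by 1.87 ± 0.16, and in SLC9A2, the neighbour of SLC9A4, by 1.59 ± 0.42 (log2 fold change ± SE, edgeR adjusted p = 4.1e-14 and 8.2e-04).

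The table assigns a transcription factor family to 4 of the 50 genes (8%), to 6.58% of all DMSO-silent genes and to 7.76% of all protein-coding genes. ASCL5, a basic helix-loop-helix factor of the achaete-scute family, had 2, 0 and 0 counts with DMSO, 0, 2 and 0 with compound 1 and 42, 63 and 63 with SCH772984, and its other 4 family members had at most 3 counts in every DMSO and SCH772984 library. HEY1, a repressor induced by Notch, had 1, 2 and 0 counts with DMSO, 2, 2 and 1 with compound 1 and 24, 23 and 33 with SCH772984. In the HES and HEY family 3 of 5 tested genes rose and 2 fell. HES1, the canonical Notch target, fell by 1.75 ± 0.27 and HES2 rose by 1.92 ± 0.26 (log2 fold change ± SE, edgeR adjusted p = 1.6e-07 and 1.1e-08). JAG2, a Notch ligand that adjoins GPR132, rose by 0.96 ± 0.06 (edgeR adjusted p = 3.9e-19). ZFP2, a zinc finger protein, had 2, 1 and 1 counts with DMSO, 1, 7 and 3 with compound 1 and 38, 43 and 62 with SCH772984.

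The enzymes covered unrelated reactions. ST6GALNAC2, a sialyltransferase of mucin-type sugar chains, had 2, 2 and 3 counts with DMSO, 1, 5 and 5 with compound 1 and 82, 84 and 111 with SCH772984. PRODH, which oxidizes proline in mitochondria, had 1, 3 and 1 counts with DMSO, 0, 1 and 1 with compound 1 and 33, 90 and 86 with SCH772984, where the first library stood apart from the others, and a near-identical pseudogene makes its reads uncertain. PNCK, a calmodulin-dependent kinase, had 3 in each DMSO library, 3, 4 and 4 with compound 1 and 55, 89 and 87 with SCH772984. PLD1, which makes phosphatidic acid, reached 35, 33 and 51 counts with SCH772984 from 0, 0 and 1, while its relatives PLD2 and PLD3 rose from higher levels by 1.11 ± 0.09 and 1.29 ± 0.07 and PLD6 fell by 0.30 ± 0.13 (log2 fold change ± SE, edgeR adjusted p = 1.2e-14, 7.3e-22 and 0.035). RARRES3, a retinoid-induced phospholipase, reached 29, 26 and 28 counts from 0, 3 and 0. CARNS1, carnosine synthase, is described with the compound 1 comparison.

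Of the 13 cytoskeletal, adaptor and other intracellular proteins, IGFN1 has been described and 6 others had at least 50 counts in some SCH772984 library. Of these RNF224 and LMNTD2 are described with the compound 1 comparison. MYO7B, a myosin of intestinal microvilli, had 1, 2 and 0 counts with DMSO, 7, 3 and 2 with compound 1 and 58, 58 and 88 with SCH772984. Its only relative, MYO7A, rose from 16, 9 and 6 counts (log2 fold change 3.08 ± 0.26 SE, edgeR adjusted p = 3.1e-14). CRIP1, a small LIM protein, had 0, 1 and 0 counts with DMSO, 0 with compound 1 and 34, 80 and 64 with SCH772984, and its neighbour and relative CRIP2 rose from 282, 246 and 279 counts by 3.03 ± 0.08 (edgeR adjusted p = 3.3e-32). Thus both LIM genes rose from very different starting levels. ARMH1 had 0 counts with DMSO, 1, 1 and 0 with compound 1 and 28, 63 and 82 with SCH772984, and RGS11, a retinal regulator of G protein signalling, had 1, 0 and 0, then 2, 6 and 2, then 21, 26 and 55. In both, the third SCH772984 library was well above the first.

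EPN3, an endocytic adaptor, had 0, 0 and 2 counts with DMSO, 2, 3 and 3 with compound 1 and 25, 42 and 47 with SCH772984. It shares 10.3% of its exon bases with SPATA20 on the same strand, whose counts went from 415, 317 and 399 to 1717, 1909 and 2742, and how reads in the shared stretch were assigned was not tested. CGNL1, a tight junction protein, had 2, 0 and 1 counts with DMSO, 5, 8 and 0 with compound 1 and 21, 25 and 23 with SCH772984. TBC1D10C, a lymphocyte inhibitor of calcineurin, reached 25, 28 and 34 counts from 0, 1 and 1, and EDARADD, an adaptor of ectodysplasin signalling, reached 26, 23 and 22 from 1, 3 and 2. EDARADD had the smallest ratio of the list, 8.53 with a counting interval of 3.73 to 24.0. KLHDC7B had 0, 2 and 3 counts with DMSO, 3, 8 and 1 with compound 1 and 36, 29 and 47 with SCH772984.

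The threshold of the rule fell in a continuous range of counts. Among the genes just inside it were CGNL1 and COL16A1, each with a lowest SCH772984 count of 21. Just outside were CLEC4F, with 19, 27 and 22 counts, FAM92B, with 24, 19 and 25, and FOXH1, with 19, 21 and 20. For 25 of the 50 genes the lowest SCH772984 count was between 20 and 29. At the other limit, 14 switched-on genes had a highest DMSO count of 3, and 23 genes that met the SCH772984 minimum had a highest DMSO count of 4.

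Compared per length of exon, the switched-on genes reached low to moderate levels with SCH772984. Their median was 0.632 CPM per kilobase and their median percentile among protein-coding genes 45.8, with a range from 37.9 for MUC5AC to 73.1 for IGFN1. After IGFN1 and ANGPTL7, high levels were those of PRSS35 at 2.87 ± 0.602, VTN at 2.58 ± 0.518 and PTGDS at 2.46 ± 0.613 CPM per kilobase (SD, n = 3). These were followed by ST6GALNAC2 at 2.30 ± 0.103, PIK3IP1 at 2.24 ± 0.156, ASCL5 at 2.15 ± 0.453, LMNTD2 at 2.06 ± 0.514, CRIP1 at 1.86 ± 0.798 and LCN12 at 1.84 ± 0.348. From PRSS35 onward each neighbour in this order differed by less than the larger SD of the pair. The secreted and matrix group had the highest median level of the 6 groups, 1.84 CPM per kilobase, and the channels and transporters the lowest, 0.388. Exons added up to a median of 4337 bases per switched-on gene, against 2754 for the other silent genes and 5093 for the remaining protein-coding genes, and a fixed raw count corresponds to a lower level in a longer gene.

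Ratios of SCH772984 to DMSO ranged from 8.53 for EDARADD to 319 for ANGPTL7 among the 38 genes with a DMSO count, with a median of 29.8. For the 12 genes without one, the lower bounds ranged from 17.8-fold for COL16A1 to 751-fold for IGFN1. Between the 3 SCH772984 libraries the CPM of a gene varied with a median coefficient of variation of 18.1%. The first library had the lowest CPM for 26 of the 50 genes, while it was lowest for 30.3% of all protein-coding genes with at least 20 counts in each SCH772984 library.

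With compound 1 the counts of the switched-on genes were low, and their sum was above the DMSO sum given above. Of the 50, 34 had at most 3 counts in each compound 1 library and 6 had 0 counts in all DMSO and compound 1 libraries. Among the 6 at 0 were IGFN1, LCNL1, EDNRB, CACNA1H and MUC5AC. Only 3 genes had at least 10 counts in any compound 1 library: RNF224, LMNTD2 and CARNS1. In CPM, 32 genes were higher with compound 1 than with DMSO, 12 were lower and 6 were at 0 in both. The rule capped the DMSO counts at 3, which leaves little room for a lower value, so nothing is read from this split.

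RNF224, a RING finger protein that lies 240.9 kb beyond LCNL1 on chromosome 9, had 2, 2 and 1 counts with DMSO, 16, 11 and 10 with compound 1 and 22, 45 and 59 with SCH772984. LMNTD2, a lamin tail domain protein, had 1, 3 and 1 counts with DMSO, 13, 9 and 8 with compound 1 and 52, 78 and 107 with SCH772984. In both, the compound 1 counts lay between those of the other conditions with no overlap. The log2 fold change of compound 1 over DMSO was 2.78 ± 0.62 SE for RNF224 and 2.48 ± 0.61 SE for LMNTD2. The rule capped the DMSO counts at 3 and the 50 genes passed the filter on low counts through their SCH772984 libraries, so differences from DMSO are pushed upward and are given for the members as descriptions, with no test. For the same reason nothing is read from the 2 members, these same genes, that the fit across all genes placed past its adjusted threshold of 0.05, beside 0.653% of all 13929 genes that were called higher, nor from the 6 members past an unadjusted 0.05, beside 7.43%. LMNTD2 shares 37.4% of its exon bases with the antisense gene AP006284.1, which had 2, 0 and 5 counts with compound 1 and 17, 30 and 31 with SCH772984, and without a known strand setting their reads cannot be told apart.

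RIBC1, a ciliary microtubule protein, had 1 count in each DMSO library, 6, 7 and 4 with compound 1 and 36, 33 and 31 with SCH772984. CARNS1 had 3, 1 and 0 counts with DMSO, 5, 4 and 12 with compound 1 and 28, 35 and 50 with SCH772984. The median log2 fold change of the 50 with compound 1 was 0.56, and it was the same over the 38 that had a DMSO count. With a library left out, the median of the 50 ran from 0.38 to 0.97. The median was 0.78 over the 58 other DMSO-silent genes that passed the filter and 0.00 over all genes. For many members the interval of the difference was wide: for MYO7B, for example, it ran from 0.23 to 3.50 on the log2 scale.

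**Figure D4:**
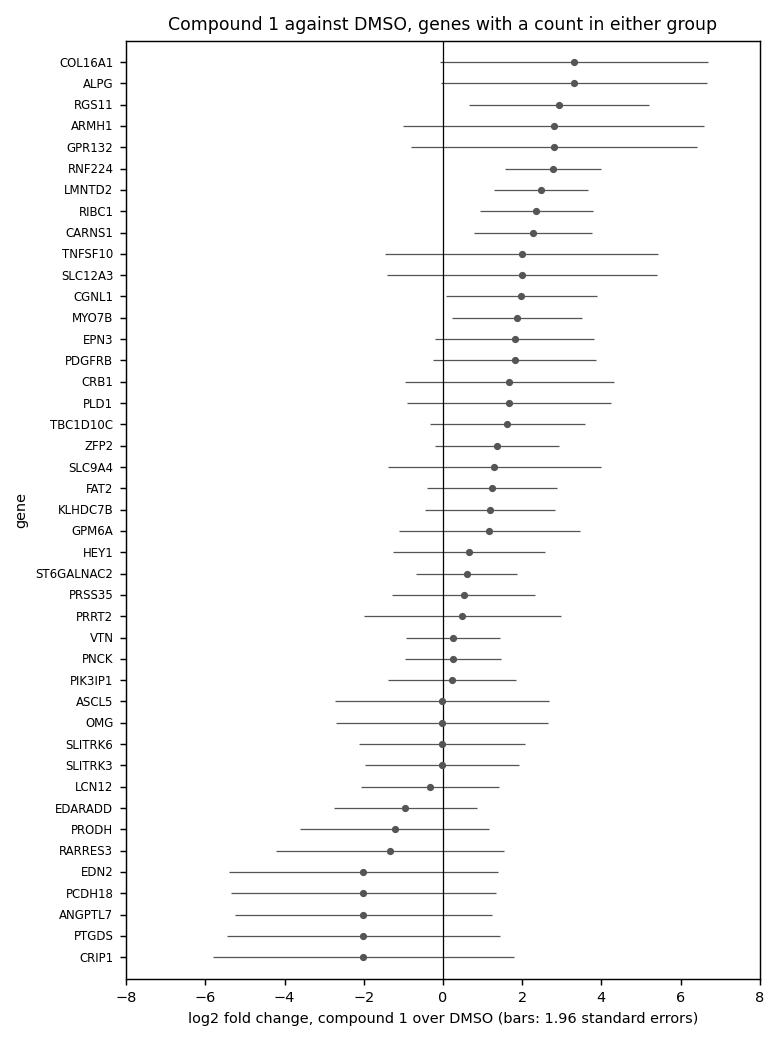
Log2 fold change of compound 1 over DMSO with 95% intervals, for 43 switched-on genes with a count in either group, ordered by value. RNF224 and LMNTD2 are at 2.78 and 2.48, and most intervals include 0; the DMSO counts were capped by the rule, so the values are descriptive.

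The 50 genes were spread over 16 chromosomes, with 10 on chromosome 1 (20% of the list, against 10.3% of the silent genes) and 5 on chromosome 11 (10% against 8%). Chromosomes 7, 10, 12, 18, 19, 20, 21 and Y had none. By the annotation, 24 of the 50 shared exon bases with another gene, 18 of them with a gene on the opposite strand, and 9 shared at least 10% of their exon bases: CRIP1, EDARADD, EPN3, LMNTD2, PRRT2, PTGDS, RGS11, ST6GALNAC2 and VTN. The strand setting of the counting is not given in the sources used here, so reads in such stretches are uncertain. Within 500 kb of another switched-on gene lay 12 of them. Besides the lipocalins with RNF224, these included ASCL5 and IGFN1, 63.6 kb apart, TBC1D10C and CARNS1, 4.88 kb apart, and GPR132 and CRIP1, 420.9 kb apart.

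Among genes that adjoin the switched-on genes, the share that rose with SCH772984 was above the share over all tested genes. The nearest protein-coding gene on each side that was not itself on the list gave 94 neighbours, of which 55 were expressed enough to be tested. With SCH772984, 33 of these rose (60.0%), 13 fell (23.6%) and 9 were not called, whereas 37.2% of all 13834 tested genes rose and 35.5% fell. Scaling by library size alone moved the median of all tested genes from 0.03 to 0.20 on the log2 scale, with 45.1% higher and 28.3% lower, and 37 of the 55 neighbours (67.3%) then rose. As a further comparison chosen after the data were seen, 5240 tested genes adjoining the other silent genes rose in 36.2% and fell in 38.1%. Of the 26 tested neighbours within 10 kb 14 rose, and of the 29 farther away 19 rose, so the share was not larger at the shorter distance. A neighbour near 0 in DMSO, such as ALPP or BCHE, passed the filter on low counts only through its SCH772984 libraries. The filter thus pushes the share that rose upward. These shares describe the neighbours and were not tested. Their median log2 fold change was 0.62, against 0.03 over all tested genes.

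The neighbours that changed most were ALPP, MYCBPAP beside EPN3, BCHE at 575.8 kb from SLITRK3, C8G and LRRC56 beside LMNTD2. MYCBPAP rose from 4, 7 and 2 counts by 3.65 ± 0.36 and LRRC56 from 5, 6 and 4 by 3.24 ± 0.35 (log2 fold change ± SE, edgeR adjusted p = 1.7e-12 and 2.4e-11). BCHE, butyrylcholinesterase, rose from 1, 1 and 4 counts by 3.48 ± 0.51 (edgeR adjusted p = 6.6e-08). Between ASCL5 and IGFN1 lies TMEM9, a lysosomal membrane protein, which rose from 1101, 904 and 1044 counts by 2.11 ± 0.07 (edgeR adjusted p = 3.3e-29). On both sides of RNF224, CYSRT1 and SLC34A3 rose by 2.21 ± 0.39 and 2.26 ± 0.30 (edgeR adjusted p = 2.8e-06 and 6.7e-09). The largest falls among neighbours were those of KIF2C, a mitotic kinesin beside ARMH1, by 1.99 ± 0.07 and of CDCA4, beside GPR132, by 1.91 ± 0.08 (edgeR adjusted p = 4.8e-28 and 6.9e-26). Within a neighbourhood the direction could differ, as at ARMH1, where TMEM53 on the other side rose by 2.19 ± 0.21 (edgeR adjusted p = 7.8e-13).

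**Figure D5:**
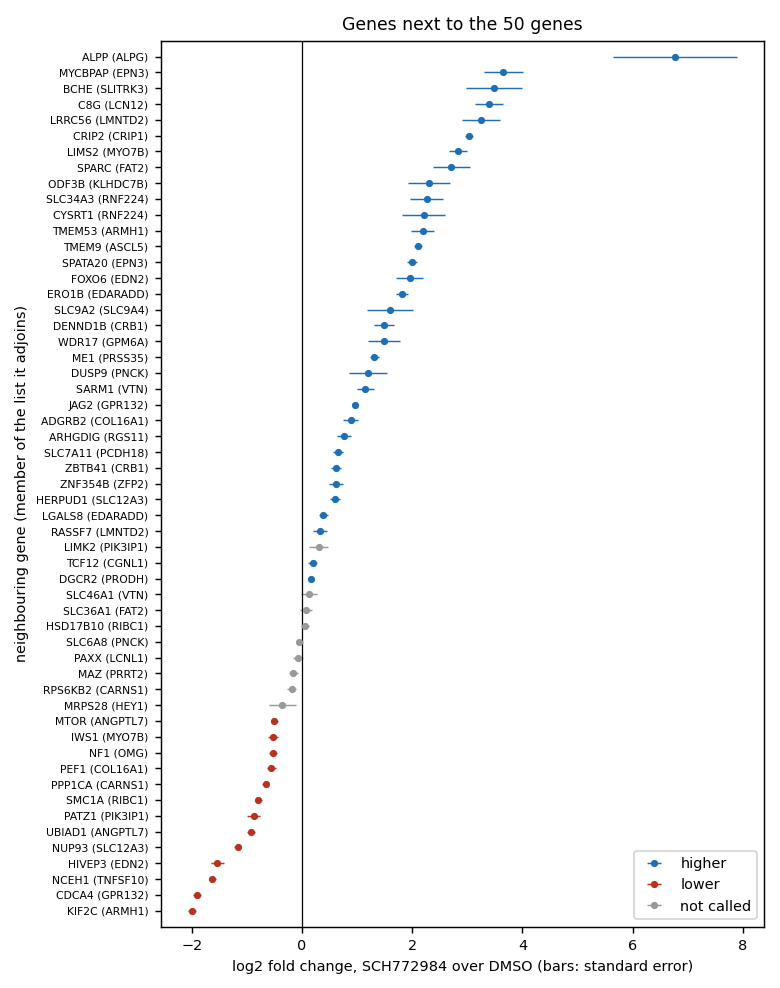
Log2 fold change of SCH772984 over DMSO, with standard errors, for the 55 tested neighbours, each labelled with the switched-on gene it adjoins. Blue marks the 33 that rose, red the 13 that fell and grey the 9 not called at an edgeR adjusted p of 0.05; ALPP, near ALPG, is at the top and KIF2C, beside ARMH1, at the bottom.

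Relatives were read in the same way. In 28 families that hold a switched-on gene, 137 other genes were found, of which 64 had at most 3 counts in every DMSO and SCH772984 library and 54 could be tested. Of these 34 rose (63.0%), 11 fell (20.4%) and 9 were not called, with a median log2 fold change of 0.55, whereas over all tested genes 37.2% rose and 35.5% fell. Relatives near 0 in DMSO could likewise be tested only when high with SCH772984, which pushes the share that rose upward. Families were drawn up with the list known, and a gene such as CRIP2, C8G, ALPP or SLC9A2 counts both as relative and as neighbour. Epsins and TRAIL receptors were among the exceptions, with EPN1 lower by a log2 fold change of -0.95 ± 0.07 SE (edgeR adjusted p = 4.1e-15) and 0 of 5 tested genes of both families higher.

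Among genes of the 18 lineage lists that were not switched on, 99 of 641 could be tested, and 56 rose (56.6%), 16 fell (16.2%) and 27 were not called, with a median log2 fold change of 0.80. Over all tested genes 37.2% rose and 35.5% fell. Under library-size scaling 62 list genes rose and 16 fell, beside 45.1% and 28.3% of all tested genes. A list gene near 0 in DMSO, such as LDB3, passed the filter on low counts only through its SCH772984 libraries. The filter thus pushes the share that rose upward, and nothing is read from its excess over all tested genes. All 7 tested genes of the bone and cartilage matrix list rose. The largest rise was that of COL1A1, from 4, 1 and 2 counts to 29, 28 and 48 (log2 fold change 3.36 ± 0.48 SE, edgeR adjusted p = 4.4e-08). COL1A1 too passed the filter only through its SCH772984 libraries, so its rise was a condition of being tested. On the muscle list, which holds IGFN1, 4 of 6 rose and 0 fell, and LDB3, a Z-disc protein, went from 2, 2 and 5 counts to 76, 85 and 112 (log2 fold change 4.39 ± 0.36 SE, edgeR adjusted p = 8.0e-15). On the simple and ductal epithelium list, which holds MUC5AC, 2 of 7 rose and 4 fell. The risers were ELF3 and MUC1, by 3.20 ± 0.19 and 2.77 ± 0.18, and KRT18 fell by 2.40 ± 0.06 (log2 fold change ± SE, edgeR adjusted p = 1.6e-19, 1.0e-13 and 4.0e-32). On the endothelial list 3 rose and 3 fell of 8, and on the kidney and lung list, which holds SLC12A3, 3 of 4 rose. Of the 48 testis and germline genes 47 were silent in DMSO, and 0 had at least 5 counts in each SCH772984 library.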

How the data were processed

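The authors deposited raw read counts per gene for 9 libraries, whole numbers without normalization, for 58735 genes that matched GENCODE release 29 by identifier, coordinates and strand. The submitters' processing notes name HISAT2 2.0.5, featureCounts 1.5.0-p3 and hg38. The strand setting is not given in the sources used here, and exon lengths were those in the deposited table. Library totals were 9464432 to 13887859 counts, so a gene at 20 counts carries a large counting error, and intervals and floors cover counting error only.

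Libraries were grouped by their titles. Switched-on genes were the protein-coding genes with at most 3 counts in each DMSO library and at least 20 in each SCH772984 library. The members, the lineage lists and the families were chosen with earlier results of these data known. Compound 1 was compared with DMSO over all 9 libraries in 1 fit, and SCH772984 with DMSO over their 6 libraries, with edgeR 4.0.16 (quasi-likelihood test, TMM, filterByExpr with a minimum count of 10 and a minimum total of 15) in R 4.3.3 and Benjamini-Hochberg adjustment over all tested genes at 0.05. Both comparisons share the DMSO libraries. Ratios are of summed TMM-scaled counts, with exact conditional binomial 95% intervals, or against 3 counts over the group where DMSO had none. Promoters came from RefSeq tables (GRCh38.p14), with 1 kept for each symbol.

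Named with values were the 12 members with the highest per-length level, the 6 with the most compound 1 counts and ties, those past the adjusted threshold with compound 1, whose values are descriptions because the rule used the DMSO counts, those within 500 kb of another, those at 0 in DMSO and at least 100 with SCH772984, those at the threshold and those on a lineage list, and other members by role after their values were seen. For 2 of the 50 genes, values are not reported here. Neighbours, relatives and list genes were named among the 5 largest changes or as relatives of a described member. The fits were tested on simulated data. Alternatives were library size or RLE scaling, other filters, DESeq2 1.42.0, protein-coding genes only, other thresholds, the replicate number as a block, another set of libraries and leaving out each library. Replicate libraries differed by more than counting noise, so none was treated as a library deposited more than once; this does not show that they came from separate cultures.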

Additional observations from a re-analysis of the deposited data

How the results depend on the processing

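The number of switched-on genes depended on the limits chosen, and with raw counts of this size a few reads decide membership. It was 12 with 0 counts in each DMSO library, 25 with at most 1 and 98 with at most 5, and 149 with at least 10 and 15 with at least 50 counts in each SCH772984 library. On TMM-scaled counts 30 genes met the rule, all from the 50. This scaling raises DMSO counts and lowers SCH772984 counts, so a raw DMSO count of 3 passes the ceiling of 3. That was the highest DMSO count of 14 members, and the SCH772984 minimum also became harder to reach. Thinned to 9464432 counts per library 39 genes met the rule, of which 37 were from the 50. Leaving out a DMSO or SCH772984 library gave 55 to 72 genes. The rule gave 0 genes with compound 1 in place of SCH772984 and 1 when turned round, both chosen after the data were seen.

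With compound 1, 2 members were past the adjusted threshold, a count that describes genes whose DMSO values the rule capped and from which nothing is read. There were 6 at the unadjusted threshold, 1 in the fit of 6 libraries without a filter, and 0 to 2 with a library left out: 0 without DMSO replicate 1, 2 or 3, and 1, RNF224, without compound 1 replicate 2 or 3 or SCH772984 replicate 2. The median log2 fold change was 0.38 to 0.97 with a library left out and 1.15 in the fit of 6 libraries without a filter, which tested 44 members. Requiring at least a 2-fold change with SCH772984 left 2517 genes higher and 1472 lower over all genes, 5 lower neighbours and 3 lower relatives, and omitting the filter gave 86 higher lineage list genes. Of the values for single genes under the alternatives, 721 kept their direction and their side of the threshold and 10, all for RNF224 or LMNTD2 with compound 1, kept the direction alone. Scaling by library size alone raised the share of SCH772984 calls that were higher from 51.2% to 61.5%. The bone and cartilage list had 1 lower gene without DMSO or SCH772984 replicate 3. Same-numbered libraries correlated at -0.08 to 0.11, so the numbers do not pair them. With the replicate number as a block, 2 members were past it with compound 1, and 5145 genes rose and 4926 fell with SCH772984, 33 and 14 of them neighbours.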

Other observations

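The same count limits were met by 14 genes that are not protein-coding, of 6 biotypes. The antisense gene AL353622.1 on chromosome 1 reached the highest counts, with 3, 0 and 3 in DMSO, 12, 7 and 13 with compound 1 and 92, 133 and 204 with SCH772984. LINC00689 had 0 counts in all DMSO and compound 1 libraries and 21, 20 and 28 with SCH772984. LINC01447 went from 0, 1 and 0 counts to 31, 45 and 39. The pseudogenes DNM1P46 and ABCC6P1 reached 31, 27 and 20 and 20, 25 and 29 counts, and their reads can be shared with the parent genes.

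Several genes named below, GPR37L1, ABCC8, ATP4A and PSG4, were near 0 in DMSO. They passed the filter on low counts only through their SCH772984 libraries, which pushes the shares that rose upward. On the glia and neural crest list 3 of 9 tested genes rose, 2 fell and 4 were not called, with a median log2 fold change of -0.06. GPR37L1, an astrocyte receptor, had 0 counts in each DMSO library and 16, 15 and 16 with SCH772984, whereas MBP, a myelin protein, went from 1433, 1427 and 1336 counts to 228, 243 and 283 (log2 fold change -2.95 ± 0.08 SE, edgeR adjusted p = 7.8e-32). On the pancreatic endocrine list 4 of 5 rose, among them ABCC8, a subunit of the beta cell potassium channel, which had 1, 3 and 0 counts and then 16, 17 and 28. On the stomach and intestine list 2 of 3 rose, and ATP4A, the gastric proton pump, went from 4, 1 and 2 counts to 34, 31 and 56 (log2 fold change 3.56 ± 0.47 SE, edgeR adjusted p = 6.3e-09). On the list of steroid and reproductive endocrine genes 4 of 5 rose, and PSG4, a pregnancy-specific glycoprotein, went from 2, 5 and 4 to 127, 147 and 141 (log2 fold change 4.73 ± 0.31 SE, edgeR adjusted p = 4.0e-18). On the endothelial list, where 3 rose and 3 fell, CDH5, the endothelial cadherin, fell from 28, 40 and 39 counts to 0, 1 and 4 (log2 fold change -4.79 ± 0.51 SE, edgeR adjusted p = 1.8e-11).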
